A study of Mus musculus with 6 samples.

Results

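The transcripts of 31 imprinted genes, in 17 chromosomal clusters, were examined in AML blasts of 6 mice. The members are a list of gene symbols (*H19*, *Igf2*, *Dlk1*, *Meg3* and others named below), each matched to 1 gene among the 53458 genes of the tables, and the list, drawn up with earlier results of these data known, applies no threshold on a measured value. Both groups carried one deleted *Cebpa* allele and one allele that makes only the short p30 isoform, on the C57BL/6 strain. The blasts of 3 mice were Cebpa-/p30 Tet2+/+ (mice 19, 23 and 24) and those of 3 mice were Cebpa-/p30 Tet2-/- (mice 5, 7 and 8), and each mouse gave 1 library. As the study's methods state, marrow of individual donors was transplanted into irradiated adult female congenic recipients, and the floxed alleles were then deleted through Mx1-Cre by Poly(I)-Poly(C). Mx1-Cre acts in all cells that answer interferon, so deletion was not limited to the leukemic clone. Donor-derived cells without the surface markers of T cells, B cells and erythroid cells were sorted from marrow of mice when they had become moribund, so at no fixed age.

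An imprinted gene is transcribed mainly from the copy inherited from one parent. In the germ line, DNA methylation is laid down on the imprinting control region of a cluster in eggs or in sperm only, and it is kept through later cell divisions by *Dnmt1*, *Uhrf1* and zinc finger proteins that recruit *Trim28*. Many clusters pair a protein-coding gene with a long non-coding RNA made from the other parental copy, as *Igf2r* with *Airn* and *Cdkn1c* with *Kcnq1ot1*. TET2 oxidizes methylated cytosine, and the comparison of genotypes asks whether its loss goes with a different level of these RNAs. The study gives a single inbred strain for the donors, from which the sorted cells derive, and a congenic strain for the recipients. No variant was used to tell the parental copies apart, and only the summed level of both copies was measured.

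The libraries held between 13036643 and 32855343 estimated reads. The reads came from a kit that enriches polyadenylated RNA and does not mark the strand, so reads of a gene and of an overlapping antisense gene cannot be told apart. Over all genes, 22170 had a library-size-normalized sum of at least 10 reads and were tested. The targeted gene, *Tet2*, was at 73.6, 79.5 and 98.4 CPM (reads of a gene scaled to the TMM-normalized library total) in Tet2+/+ blasts and at 111, 79.4 and 96.7 CPM in Tet2-/- blasts, so its whole-gene level does not check the labels. *Mpo*, which encodes the peroxidase of immature myeloid cells, was at 4527, 4110 and 4230 CPM in Tet2+/+ blasts and at 3394, 3091 and 2662 CPM in Tet2-/- blasts. *Ms4a3*, another granulocyte progenitor marker, was at 137 to 248 CPM against 291 to 331 CPM. Of 10 myeloid blast markers, 2 were lower (*Mpo* and *Cd34*) and 1 higher (*Ms4a3*) without overlap between genotypes, and the rest overlapped. Over all genes whose mean reached 1 CPM, 7.71% did not overlap in the lower and 8.24% in the higher direction. The summed level of the 10 markers overlapped, at 7393 to 9411 CPM against 6978 to 9954 CPM. In bulk RNA, fewer cells of a type and less RNA per cell cannot be told apart.

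The upstream sequences of 3 members are shown, because 2 of them stood far above the rest in a single mouse (*Zrsr1* and *Igf2r*) and the third, *Kcnq1ot1*, was lower in each Tet2-/- mouse than in each Tet2+/+ mouse. Each is the 250 bases before the transcription start given by RefSeq, on build GRCm38.p6, written 5′ to 3′ on the strand of the gene, with CpG dinucleotides, the bases that DNA methylation and TET2 act on, in capitals. The *Zrsr1* sequence lies at chr11:22971755-22972004 on the plus strand, that of *Igf2r* at chr17:12769707-12769956 on the minus strand and that of *Kcnq1ot1* at chr7:143296548-143296797 on the minus strand.
Zrsr1: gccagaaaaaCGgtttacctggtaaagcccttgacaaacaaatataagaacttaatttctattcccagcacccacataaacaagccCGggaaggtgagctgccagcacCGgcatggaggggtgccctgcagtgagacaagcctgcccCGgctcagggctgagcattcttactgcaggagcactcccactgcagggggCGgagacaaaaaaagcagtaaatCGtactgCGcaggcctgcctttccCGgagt
Igf2r: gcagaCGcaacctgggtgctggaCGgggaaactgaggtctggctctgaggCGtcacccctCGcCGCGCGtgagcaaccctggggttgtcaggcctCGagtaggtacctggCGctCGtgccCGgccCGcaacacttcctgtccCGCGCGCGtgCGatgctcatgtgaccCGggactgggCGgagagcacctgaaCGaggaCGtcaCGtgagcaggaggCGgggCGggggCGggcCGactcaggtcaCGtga
Kcnq1ot1: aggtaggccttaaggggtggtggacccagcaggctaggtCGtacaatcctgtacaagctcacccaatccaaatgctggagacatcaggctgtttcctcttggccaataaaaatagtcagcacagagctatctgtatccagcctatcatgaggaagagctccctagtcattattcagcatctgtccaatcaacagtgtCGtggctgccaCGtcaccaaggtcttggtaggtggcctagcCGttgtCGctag
The stretch before *Igf2r* holds 27 CpG, that before *Zrsr1* 8 and that before *Kcnq1ot1* 5, against a median of 6 over the 32851 promoters of the table. Of the 31 members, 24 had an entry in the table, with 38 promoters whose median was 10 CpG. The hexamer TGCCGC, read on both strands (reverse complement GCGGCA) and known as the core of the motif bound by ZFP57 when methylated, was present in 6 of these 38 promoters (15.8%) and in 8.68% of all promoters of the table. The 6 belong to *Mcts2*, *Mest* (2 starts that overlap), *Nap1l5*, *Plagl1* and *Meg3*, and none of the sequences printed here holds it.

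Of the 31 members, 17 had a read in every mouse, 21 passed the filter on low counts and 13 reached a mean of 1 CPM after TMM normalization. These 13 come from 8 of the 17 clusters. In the other 9 clusters (*H19-Igf2*, *Dlk1-Meg3*, *Peg3*, *Grb10*, *Snrpn*, *Plagl1*, *Nap1l5*, *Peg10* and *Nnat*) no member reached that level. Among the 10 members that were not tested, no read was assigned to *Mirg*, a non-coding RNA that hosts miRNAs, or to *Ndn*, which encodes necdin. A count of 0 allows up to 3 reads, which is between 0.0949 CPM in mouse 5 and 0.211 CPM in mouse 24. The other 8 untested members were *H19*, *Dlk1*, *Meg3*, *Peg3*, *Phlda2*, *Snrpn*, *Nap1l5* and *Peg10*, and none had more than 9 reads over the 6 mice or more than 5 in a mouse.

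The members under 1 CPM included those of the *H19-Igf2* and *Dlk1-Meg3* clusters. *Igf2*, which encodes a fetal growth factor, had 0, 3 and 2 reads in Tet2+/+ mice 19, 23 and 24 and 4, 2 and 0 reads in Tet2-/- mice 5, 7 and 8, and up to 100% of the bases of its annotated transcripts are shared with the overlapping gene *Gm49394*, which had no read. *H19*, the non-coding partner of *Igf2*, had 2 reads, both in mouse 5. *Dlk1*, which encodes a membrane protein of the Notch ligand type, had 1 read in each of mice 5 and 7. *Meg3* had 4, 1 and 1 reads in Tet2+/+ blasts and 2, 0 and 1 in Tet2-/- blasts. *Rian*, a non-coding RNA of the same cluster, had 3, 4 and 1 reads in Tet2+/+ blasts and 12, 4 and 8 in Tet2-/- blasts, and its CPM did not overlap between the genotypes (0.0704 to 0.214 against 0.257 to 0.434), with adjusted p = 0.679 from edgeR. *Usp29*, the neighbour of the zinc finger gene *Peg3*, had at most 6 reads in a mouse, and its transcripts share sequence with *Zim3*. The long non-coding *Airn* had 5, 8 and 10 reads against 21, 7 and 12. *Plagl1*, which encodes a zinc finger growth suppressor, had at most 12 reads, *Sgce*, which encodes a sarcoglycan, at most 3, and *Nnat*, which encodes the membrane protein neuronatin, between 9 and 22. These low members are given as reads, with no fold change.

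*Grb10*, which encodes an adaptor that restrains insulin and growth factor receptors, had most of its reads in 2 mice, 1 of each genotype. It had 21, 0 and 2 reads in Tet2+/+ mice 19, 23 and 24, and 4, 0 and 24 reads in Tet2-/- mice 5, 7 and 8. Its adjusted p was 0.999 from edgeR. The platelet factor *Pf4* was also highest in mice 19 (1.73 CPM) and 8 (1.41 CPM) and at most 0.282 CPM in the others, but it is 1 of 6 markers, and only 1 of the 6 was highest in mouse 8 and 2 in mouse 19. The summed level of all 6 megakaryocyte markers was 49.05, 46.4 and 26.4 CPM in Tet2+/+ blasts and 16.7, 28.2 and 12.9 CPM in Tet2-/- blasts, so it was lowest in mouse 8. The part of such cells in the *Grb10* reads was not tested.

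Levels per transcript length, the scale on which genes can be set beside each other, are given as TPM, the transcript abundance that Salmon scales by length, as a mean ± SD over the 6 mice. *Gnas*, which encodes the stimulatory G protein alpha subunit, was the highest member at 179 ± 30.05 TPM. *Commd1*, which encodes a regulator of copper transport and protein sorting, followed at 55.1 ± 11.5 TPM, and *H13*, which encodes signal peptide peptidase, at 42.0 ± 12.8 TPM. *Commd1* and *H13* do not differ beyond their spread, whereas the lowest mouse of *Gnas*, at 138 TPM, was above the highest of *Commd1*, at 69.7 TPM. *Zrsr1*, which encodes a splicing factor related to U2AF, had a mean of 14.2 TPM but ranged from 2.55 to 62.8 TPM. Its mean and place in this order rest on mouse 19, since the other mice were at 2.55 to 6.55 TPM. *Peg13* (6.01 ± 4.83), a non-coding RNA within an intron of *Trappc9*, and *Trappc9* itself (5.47 ± 0.830), which encodes a subunit of a vesicle tethering complex, overlapped. *Impact* (3.64 ± 0.964), which encodes an inhibitor of the kinase GCN2, was next. *Mcts2* (2.13 ± 0.804), *Slc22a18* (1.33 ± 0.307) and *Cdkn1c* (1.10 ± 2.16) overlapped with their neighbours in this order. The mean of *Cdkn1c* rests on mouse 5, at 5.49 TPM, since the other mice were at 0.0302 to 0.591 TPM. *Mest* (0.665 ± 0.314) and *Igf2r* (0.465 ± 0.563) also overlapped, and without mouse 8 the mean of *Igf2r* was 0.251 TPM. *Kcnq1ot1* was the lowest of the 13 at 0.0768 ± 0.0161 TPM, with a single transcript annotated at 93092 bases. In reads per kilobase of the longest transcript, 5 of the 13 took another place in the order.

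None of the 31 members passed the threshold between the genotypes. By the quasi-likelihood test of edgeR, adjusted over all 22170 genes by the Benjamini-Hochberg method, 0 of 21 tested members had an adjusted p under 0.05, in a background of 0.0451% of genes lower and 0% higher in Tet2-/- blasts. The adjusted p of the members were between 0.564 and 0.999. At an unadjusted p under 0.05, 1 member was lower (*Impact*) and 1 higher (*Commd1*), against 5.12% of all tested genes for lower and 3% for higher. DESeq2, run on identical counts, gave 0 members past the adjusted threshold, where it called 1.83% of genes with an adjusted p as lower. It gave no p for *Zrsr1* and *Cdkn1c*. At an unadjusted p under 0.05 it gave 2 lower and 1 higher, beside 5.01% and 3.51% of the genes to which it gave a p. Of the 21 members, 10 had a log2 fold change below 0 and 11 above 0, with a median of 0.011, and the median over all tested genes was 0.0016. Among the 13 members with a mean of at least 1 CPM the median was -0.11, against 0.052 over all genes of that level. In these 13, the genotypes did not overlap for 2 lower members and 1 higher member, where 7.71% of genes of that level did not overlap in the lower and 8.24% in the higher direction. An exact permutation test of 3 against 3 mice cannot give a p under 0.1.

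**Figure D1:**
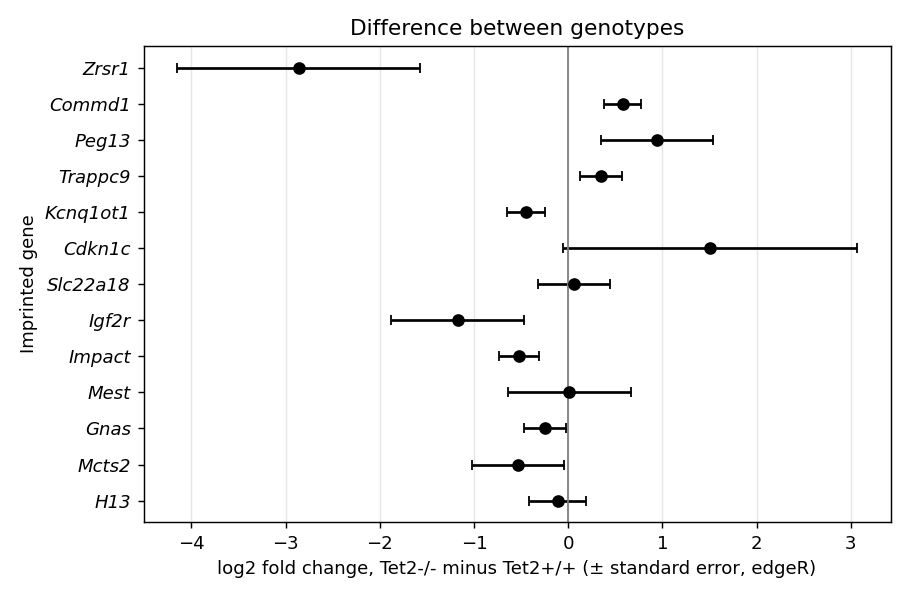
Log2 fold change (Tet2-/- minus Tet2+/+) of the 13 imprinted genes whose mean reached 1 CPM, with edgeR's standard error as bars and 0 marked by a vertical line. The widest bars are those of *Cdkn1c* (SE 1.56) and *Zrsr1* (SE 1.29), and no gene passed the adjusted threshold.

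*Kcnq1ot1* (ENSMUSG00000101609, chromosome 7 from 143203458 to 143296549, antisense to *Kcnq1*) is the long non-coding RNA that silences its cluster in cis on the paternal copy. It was at 13.9, 13.5 and 14.6 CPM in Tet2+/+ mice 19, 23 and 24 and at 9.81, 10.0 and 10.96 CPM in Tet2-/- mice 5, 7 and 8. All 3 Tet2-/- mice were below all 3 Tet2+/+ mice, and the spread within a genotype was small, at 14.03 ± 0.582 CPM (SD, n = 3) against 10.3 ± 0.612 CPM (SD, n = 3) with exact permutation p = 0.1. The log2 fold change was -0.45 (SE 0.20), with adjusted p = 0.632 from edgeR. *Kcnq1* itself, which encodes a potassium channel subunit, had at most 4 reads in any mouse.

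*Impact* (ENSMUSG00000024423, chromosome 18 from 12955852 to 12992950) was likewise lower in each Tet2-/- mouse. Its levels were 20.4, 22.8 and 22.8 CPM in Tet2+/+ blasts and 16.4, 12.1 and 17.5 CPM in Tet2-/- blasts. The log2 fold change was -0.52 (SE 0.21), with unadjusted p = 0.0443 and adjusted p = 0.604 from edgeR, and the exact permutation p was 0.1.

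*Commd1* (ENSMUSG00000051355, chromosome 11 from 22896136 to 22982382) was the only one of the 13 without overlap in the higher direction. It was at 26.7, 25.0 and 18.6 CPM in Tet2+/+ blasts and at 37.8, 34.5 and 32.7 CPM in Tet2-/- blasts, a log2 fold change of 0.58 (SE 0.20) with unadjusted p = 0.0215 and adjusted p = 0.564 from edgeR. *Commd1* shares transcript sequence with the overlapping gene *Gm28048*, so the authors' quantification could split reads between them. The summed level of both genes was 103, 92.2 and 73.2 CPM in Tet2+/+ blasts and 104, 116 and 98.0 CPM in Tet2-/- blasts, and the genotypes then overlapped (exact permutation p = 0.2). For all 3 members, the summed levels of some marker lists moved with genotype as well. The summed level of 6 basophil and mast cell markers was 304 to 396 CPM in Tet2+/+ and 30.9 to 110 CPM in Tet2-/- blasts, with *Prss34* and *Fcer1a* at or near 0 throughout. This list includes *Gata2*, which the study reports as lowered by loss of TET2 in these blasts. The 10 stem cell markers summed to 180 to 317 CPM against 44.0 to 137 CPM. Most of this was *Cd34*, at 170, 310 and 193 CPM against 90.0, 32.1 and 132 CPM. *Cd34* is also among the 10 myeloid blast markers, so this sum mainly follows a single gene and is no separate measure of stem cells. The part of cell types in these differences was not tested.

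**Figure D2:**
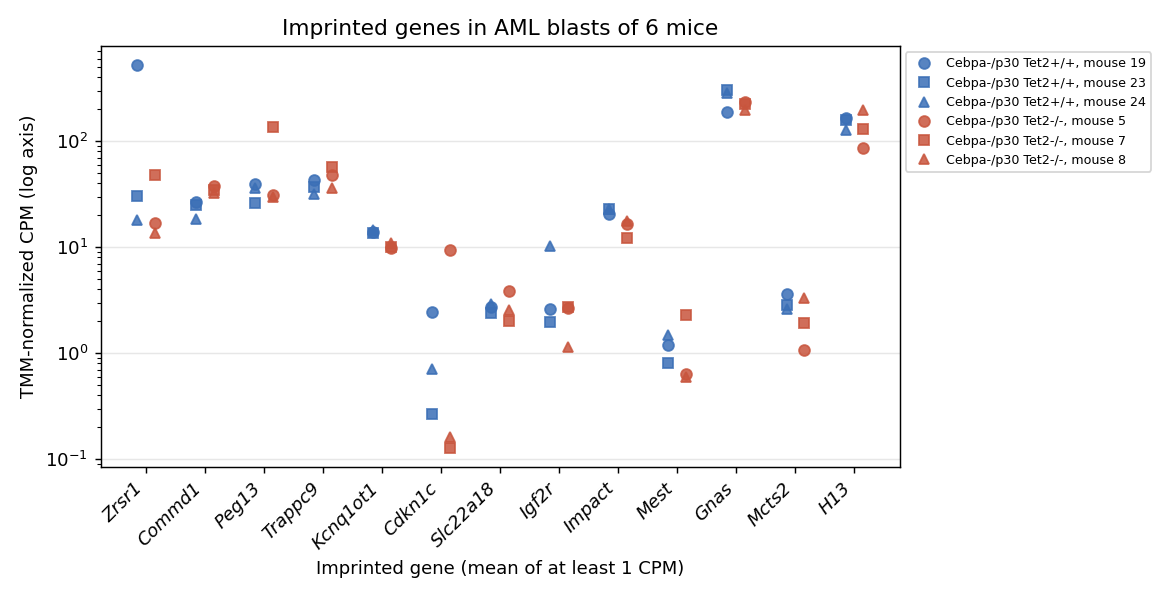
TMM-normalized CPM, on a log axis, of the 13 imprinted genes whose mean reached 1 CPM in each of the 6 mice, with Tet2+/+ in blue and Tet2-/- in red. Single mice stand above the rest for *Zrsr1* (mouse 19), *Peg13* (mouse 7), *Cdkn1c* (mouse 5) and *Igf2r* (mouse 24).

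Of the members, 4 were high in a single mouse. In 4 of the 13 members (30.8%) the highest mouse had at least 3 times the CPM of the next highest, which was the case for 1.61% of the 13839 genes whose mean reached 1 CPM. Of the 8 members with a mean of at least 10 CPM, 2 met this measure, against 0.545% of genes at that level. *Cdkn1c* reached a mean of 1 CPM only through mouse 5, since the other 5 mice averaged 0.743 CPM. With a median of at least 1 CPM in place of the mean, 3 of 11 members met the measure, against 0.952% of genes. The measure was chosen after the values had been seen, so these shares are a description. The 4 genes had their high value in 4 different mice, 2 of each genotype, and over all genes the mice held between 20 (mouse 23) and 50 (mouse 19) such cases. The median ratio of the highest to the next mouse was 1.20 over the 13 members and 1.14 over all genes of that level.

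**Figure D3:**
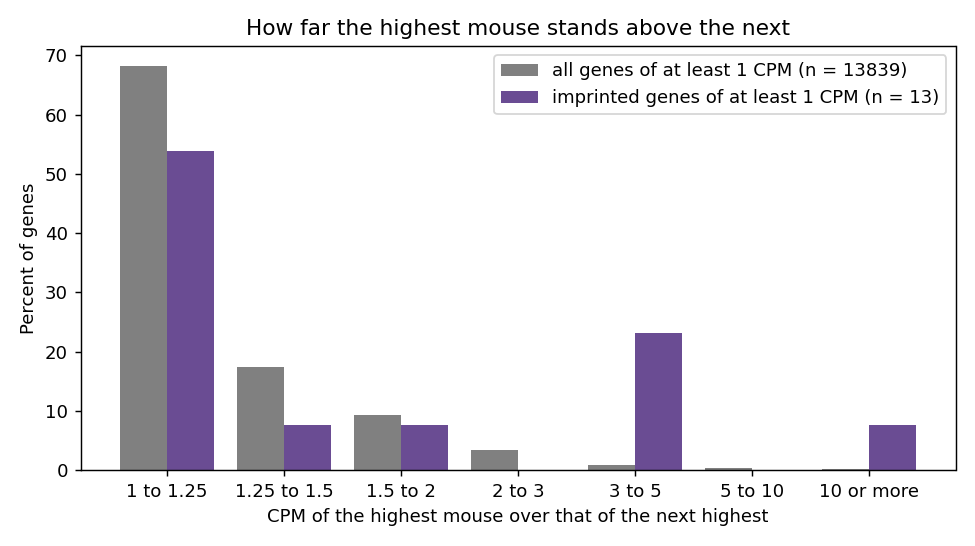
Percent of genes (vertical axis) by the ratio of the CPM of the highest mouse to that of the next highest (horizontal axis, bins of unequal width), for 13839 genes (grey) and 13 imprinted genes (purple) whose mean reached 1 CPM. Of the imprinted genes, 3 lie between 3 and 5 and 1 lies at 10 or more.

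*Zrsr1* (ENSMUSG00000044068, chromosome 11 from 22972005 to 22976496, within the span of *Commd1* on the opposite strand, with 9.17% of its exonic bases overlapping that gene) had the largest ratio of the highest to the next mouse among the 13. It had 8715, 571 and 255 reads in Tet2+/+ mice 19, 23 and 24 and 530, 753 and 250 reads in Tet2-/- mice 5, 7 and 8, or 521, 30.6 and 18.0 CPM against 16.8, 48.4 and 13.6 CPM. Mouse 19 was 10.8 times the next highest mouse and 29.0 times the median of the other 5. In mice 19 and 23 all reads were assigned to the transcript Zrsr1-201, and in the other mice 44.98% to 94.4%. The log2 fold change of -2.86 (SE 1.29) had adjusted p = 0.636 from edgeR, and without mouse 19 it was 0.11. The other genes around *Zrsr1* did not share its level in mouse 19. Of the 7 genes within 500 kb whose mean reached 1 CPM, 0 were highest in that mouse, and their ratio to the median of the other mice was between 0.652 and 1.15. *Commd1*, which surrounds it, was at 0.817 of that median. *Zrsr2*, its X-linked relative, was at 31.7 CPM in mouse 19 and between 26.1 and 38.1 CPM in the others, and no transcript of *Zrsr1* shared sequence with another gene at 95% identity over 50% of its length. Mouse 19 also stood apart in erythroid markers, whose 10 genes summed to 147 CPM there and to 6.21 to 15.3 CPM in the other 5 mice, led by *Hbb-bt* (83.0 CPM). Of these 10 genes, 9 were highest in mouse 19, among them *Epor* (1.56 CPM), *Klf1* (1.14 CPM), *Car1* (1.08 CPM) and *Alas2* (0.359 CPM). Their part in the *Zrsr1* level was not tested.

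**Figure D4:**
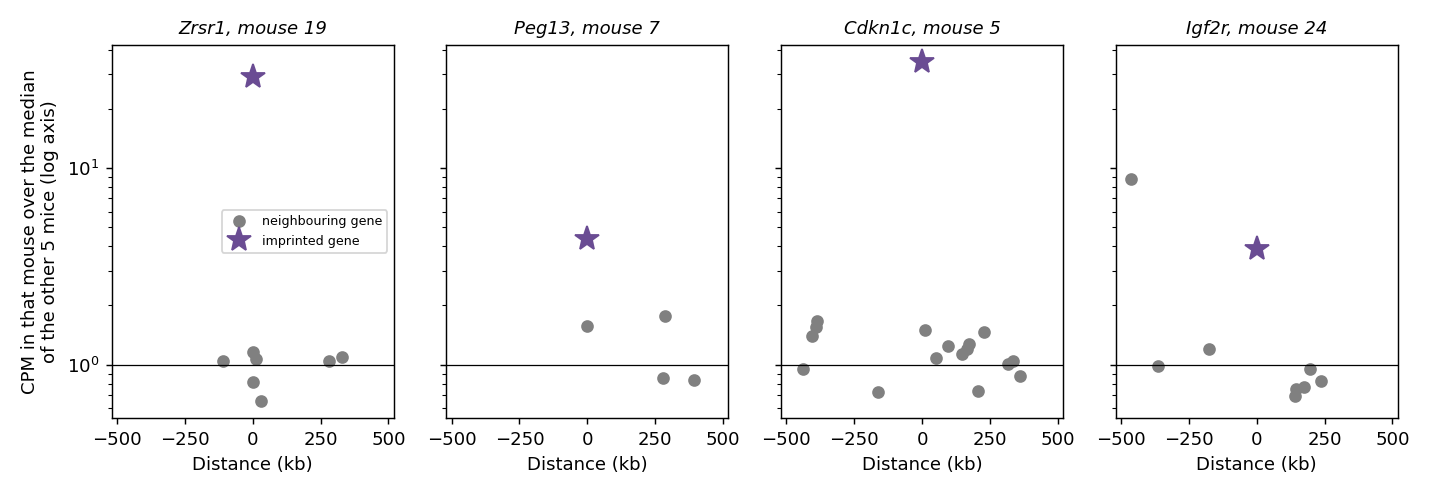
CPM in the mouse with the highest level, divided by the median of the other 5 mice (log axis), for *Zrsr1* in mouse 19, *Peg13* in mouse 7, *Cdkn1c* in mouse 5 and *Igf2r* in mouse 24 (stars) and for genes within 500 kb whose mean reached 1 CPM (dots), by distance from the imprinted gene in kb. The stars lie at 29.0, 4.36, 34.7 and 3.88, and most dots lie near 1, except *Agpat4* at 8.83, which was also high in mice 23 and 8.

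*Cdkn1c* (ENSMUSG00000037664, chromosome 7 from 143458339 to 143461050), which encodes the cell cycle inhibitor p57, ranged widely within both genotypes. It was at 2.45, 0.268 and 0.704 CPM in Tet2+/+ blasts and at 9.30, 0.129 and 0.163 CPM in Tet2-/- blasts. Mouse 5 had 294 reads, and mice 7 and 8 of the same genotype had 2 and 3. The log2 fold change was 1.503 (SE 1.56) with adjusted p = 0.847 from edgeR, and it turned to -2.91 without mouse 5. Mouse 5 was 34.7 times the median of the other mice. Of 16 genes within 500 kb, 3 were highest in mouse 5, and none exceeded 1.66 times the median of the others. In that mouse *Kcnq1ot1* stood at 0.727 of that median. *Slc22a18*, a transporter gene of the cluster, was the nearest of these genes, at 2.75, 2.41 and 2.89 CPM against 3.83, 1.99 and 2.55 CPM, a log2 fold change of 0.063 (SE 0.38). *Phlda2*, which encodes a small protein that limits placental growth, had 3 reads in mouse 19 and none elsewhere. *Cdkn1c* shares transcript sequence with the antisense gene *Gm44732*, and the sum of both was 10.7 CPM in mouse 5 and between 0.129 and 2.81 CPM in the others.

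*Igf2r* (ENSMUSG00000023830, chromosome 17 from 12682406 to 12769664) encodes the receptor that sorts lysosomal enzymes and clears IGF2. It was at 2.63, 1.98 and 10.2 CPM in Tet2+/+ blasts and at 2.69, 2.70 and 1.14 CPM in Tet2-/- blasts, with 145 reads in mouse 24 and 21 to 85 in the others. Mouse 24 was 3.78 times the next highest, and without it the log2 fold change of -1.17 (SE 0.71, adjusted p = 0.719 from edgeR) became -0.083. On length-scaled counts it was 1.04, because 0.923 estimated reads of the 245-base transcript Igf2r-202 gave 1.47 TPM in mouse 8. *Airn*, its antisense partner, was at 0.704 CPM in mouse 24 and 0.664 CPM in mouse 5. Of 8 genes within 500 kb, *Agpat4* alone was highest in mouse 24, at 3.17 CPM, but it was also at 2.62 CPM in mouse 23 and 2.12 CPM in mouse 8, and at 0.253 to 0.359 CPM in the other 3. The 12 stromal and endothelial markers summed to 103 CPM in mouse 24 and to 13.2 to 47.4 CPM in the other mice. *Cxcl12*, a chemokine of marrow stroma, was at 27.6 CPM in mouse 24, 13.6 CPM in mouse 5 and at most 3.15 CPM elsewhere. Of the 12 markers, 9 were highest in mouse 24 and 0 in mouse 5, where *Cdkn1c* was highest and where the list summed to 40.1 CPM. *Lum* was at most 0.282 CPM in every mouse. The sort kept cells with the donor form of the leukocyte marker CD45, which stromal and endothelial cells lack, and the part of such cells in these levels was not tested.

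*Peg13* (ENSMUSG00000106847, chromosome 15 from 72805600 to 72810324) was at 39.5, 26.1 and 36.1 CPM in Tet2+/+ blasts and at 30.97, 135 and 29.9 CPM in Tet2-/- blasts. Mouse 7 was 3.41 times the next highest, and the other 5 mice were between 26.1 and 39.5 CPM. Some myeloid and T cell markers were highest in mouse 7 as well. They include 3 of the 10 myeloid blast markers, *Itgam* (3134 CPM, 765 to 1538 CPM elsewhere), *Cebpe* (402 CPM, 90.8 to 217 CPM elsewhere) and *Csf3r* (918 CPM, 227 to 617 CPM elsewhere), and 4 of the 7 T cell markers, which summed to 43.3 CPM there and to 14.3 to 38.6 CPM elsewhere. Of the same 10 myeloid blast markers, *Cd34* (32.1 CPM, 90.0 to 310 CPM elsewhere) and *Ctsg* (261 CPM, 375 to 526 CPM elsewhere) were lowest in mouse 7. More of the 10, namely 4, were highest in mouse 5. The part of cells with these markers in the *Peg13* level was not tested. The log2 fold change of 0.94 (SE 0.60) had adjusted p = 0.733 from edgeR, and without mouse 7 it was -0.15. *Trappc9*, its host gene, was highest in the same mouse, at 43.2, 36.6 and 31.6 CPM against 48.2, 57.5 and 36.0 CPM, but only 1.19 times the next. *Ago2*, an Argonaute gene of the same cluster, was also highest in mouse 7, at 297 CPM against 136 to 193 CPM in the others. Of 4 genes within 500 kb, 2 were highest there, with ratios between 0.831 and 1.77 to the median of the others. Because *Peg13* lies on the strand of *Trappc9* within its intron, unspliced host reads and *Peg13* reads cannot be told apart.

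*Gnas* (ENSMUSG00000027523, chromosome 2 from 174284320 to 174346744) was at 187, 304 and 283 CPM in Tet2+/+ blasts and at 232, 225 and 197 CPM in Tet2-/- blasts, with a log2 fold change of -0.24 (SE 0.22) and adjusted p = 0.824 from edgeR. *H13* (ENSMUSG00000019188, chromosome 2 from 152669461 to 152708670) was at 164, 157 and 127 CPM against 86.8, 131 and 197 CPM, so that the Tet2-/- mice lay on both sides of the Tet2+/+ mice. *Mcts2* is a retrogene within an intron of *H13* that encodes a translation factor, and its transcription is known to alter where *H13* transcripts end. It was at 3.65, 2.84 and 2.61 CPM against 1.08, 1.93 and 3.31 CPM, with a log2 fold change of -0.53 (SE 0.49). The genotypes overlapped for *Gnas*, *H13* and *Mcts2*. *Mcts1*, the gene from which *Mcts2* derives, was at 26.8 to 40.5 CPM and showed no shared sequence at the identity used. *Mest*, which encodes a hydrolase-like protein of mesoderm, was at 1.20, 0.803 and 1.48 CPM against 0.633, 2.31 and 0.597 CPM, and 23.1% of its exonic bases overlap *Copg2* on the opposite strand.

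Transcripts within members were compared by their share of the gene's reads, for 19 transcripts of 9 members. In 3 of them the mice did not overlap between genotypes, each with an exact permutation p of 0.1. Over all genes of that level, 12.8% of 21848 transcripts chosen in the same way did not overlap, and transcripts of a gene are not independent. After Benjamini-Hochberg adjustment over the 19 transcripts the smallest p was 0.633. Gnas-216, a transcript of 480 bases, took 14.8%, 14.3% and 12.7% of *Gnas* reads in Tet2+/+ blasts and 19.7%, 19.3% and 19.4% in Tet2-/- blasts. That is 13.9% ± 1.13 (SD, n = 3) against 19.5% ± 0.172 (SD, n = 3). Gnas-206 took 36.2%, 36.5% and 34.9% against 33.0%, 33.1% and 31.7%. Commd1-205 took 24.6%, 22.1% and 19.9% against 13.9%, 18.2% and 17.5%. Both Gnas-216 and Commd1-205 are annotated as transcripts with a retained intron. At least 77.9% of the bases of Gnas-206 and Gnas-216 are shared with transcripts of the overlapping gene *Gm20721*, which was at 174 to 214 CPM, so shares of these transcripts rest on how reads were divided. The *H13* transcripts compared, H13-202 (63.1% to 70.1%) and H13-204 (20.4% to 28.5%), overlapped between genotypes.

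**Figure D5:**
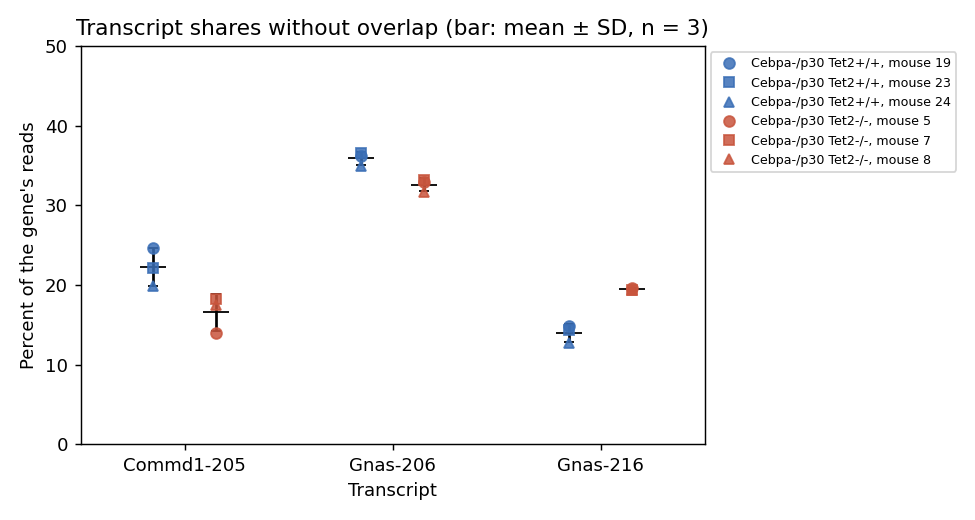
Percent of the gene's reads assigned to Commd1-205, Gnas-206 and Gnas-216 in each mouse, Tet2+/+ in blue and Tet2-/- in red, with mean ± SD of 3 mice. For each transcript the points of the genotypes do not overlap, and the shift is between -5.65 and 5.53 percentage points.

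A further list of 49 imprinted genes of these or other clusters was examined in the same fit. Of these, 34 were tested, 21 reached a mean of 1 CPM and 7 had no read. None passed the adjusted threshold in edgeR, with 3 lower and 1 higher at an unadjusted p under 0.05, beside 5.12% and 3% of all tested genes. DESeq2 on the same counts called 2 lower, *Gab1* and *Peg12*, and it called 1.83% of all genes to which it gave an adjusted p as lower. The list's median log2 fold change over the tested genes was -0.050. *Gab1*, which encodes a docking protein of growth factor receptors, was at 6.88, 11.9 and 6.83 CPM in Tet2+/+ blasts and at 2.56, 0.579 and 1.68 CPM in Tet2-/- blasts. Its log2 fold change was -2.39 (SE 0.57), with adjusted p = 0.342 from edgeR and 0.00204 from DESeq2, and the genotypes did not overlap. *Peg12*, a gene of the *Snrpn* region, was at 0.0598, 0.750 and 8.10 CPM in Tet2+/+ blasts and had no read in Tet2-/- blasts. It passed the filters only through the Tet2+/+ mice, and the mean of 1 CPM only through mouse 24, so its call is given as a description. Its mean was at least 19.8-fold lower in Tet2-/- blasts against a floor of 3 counts per library, and at least 2.70-fold lower without mouse 24. The bound without mouse 24 rests on mouse 23 alone, since mouse 19, at 0.0598 CPM, was under its own floor of 0.179 CPM. *Cd81*, which encodes a tetraspanin and lies in the *Kcnq1ot1* domain, was at 76.3, 39.4 and 39.4 CPM against 116, 89.4 and 74.3 CPM, a log2 fold change of 0.85 (SE 0.31) with adjusted p = 0.591 from edgeR.

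The factors that establish or keep imprints were mostly expressed. Of 23 listed genes, 22 were tested and 20 reached a mean of 1 CPM, and none passed the adjusted threshold in edgeR or in DESeq2, with 2 lower and 0 higher at an unadjusted p under 0.05, beside 5.12% and 3% of all tested genes. Their median log2 fold change was -0.066. The genes at an unadjusted p under 0.05 were *Dnmt3a* and *Dnmt3b*, which encode de novo DNA methyltransferases. *Dnmt3a* was at 91.0, 114 and 122 CPM in Tet2+/+ blasts and at 62.0, 77.5 and 75.9 CPM in Tet2-/- blasts, without overlap, a log2 fold change of -0.60 (SE 0.18) with adjusted p = 0.504 from edgeR. *Eed*, which encodes a Polycomb subunit, did not overlap in the other direction, at 54.9, 55.2 and 45.6 CPM against 61.7, 59.3 and 64.0 CPM, and these were the 2 factors of the 20 without overlap, beside 7.71% of genes lower and 8.24% higher. *Dnmt3b* was at 32.1, 16.1 and 11.7 CPM against 5.47, 7.78 and 13.1 CPM, a log2 fold change of -1.18 (SE 0.47) with adjusted p = 0.604 from edgeR, and mouse 8 overlapped with the Tet2+/+ mice. *Dnmt3l*, which encodes a cofactor of these enzymes, was at 7.60, 3.64 and 4.37 CPM against 5.69, 12.2 and 8.57 CPM, a log2 fold change of 0.76 (SE 0.42). The maintenance methyltransferase gene *Dnmt1* was between 306 and 422 CPM, *Uhrf1* between 170.5 and 261 CPM and *Trim28* between 156 and 239 CPM. *Zfp57*, whose protein binds methylated imprinting control regions in early embryos, was at most 0.359 CPM, *Zfp445*, a zinc finger gene with a like role, was between 54.2 and 224.5 CPM, and *Dppa3*, which protects methylation in the egg, had no read.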

How the data were processed

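The authors deposited estimated count values for each transcript, made with Salmon 0.12.0 on build GRCm38.p6 per the submitters' processing notes and not normalized across mice. The authors also deposited TPM from the same run, scaled by effective transcript length. Counts of transcripts were added up per GENCODE M21 gene and rounded (Python 3.11.15, pandas 2.3.3). In each mouse, 0.0307% to 0.0416% of reads lay on transcripts without a gene there and were left out. Genes with a library-size-normalized sum of at least 10 were compared by edgeR 4.0.16's quasi-likelihood test (R 4.3.3) after TMM normalization, without covariates, with Benjamini-Hochberg adjustment over all tested genes and a threshold of 0.05. Standard errors were obtained as the absolute log2 fold change over the root of F. Exact permutation tests were two-sided. CPM values are TMM-normalized. Alternatives were DESeq2 1.42.0, length-scaled counts, other filters and scalings, and leaving out each mouse. Sequence was counted as shared at 95% identity over 50% of a transcript (BLAST+ 2.17.0). Figures were drawn with matplotlib 3.10.9. All 31 members are named, and of the further imprinted genes and the imprint factors those whose mean reached 1 CPM at an unadjusted p under 0.05. Of transcripts, those with at least 10% of the reads were compared and those without overlap named. Other names, the neighbouring genes and the ratio to the next mouse were chosen after values were seen. The members and lists were chosen with earlier results of these data known. Libraries came from separate mice, no batch is given, and the floor of 3 counts covers counting error only.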

Additional observations from a re-analysis of the deposited data

How the results depend on the processing

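Over 14 alternatives for each of the 13 members with a mean of at least 1 CPM, 167 of 182 log2 fold changes kept their direction, and 15 reversed. None of those with a p passed the adjusted threshold, and 4 had none, since DESeq2 gave no p for *Zrsr1* and *Cdkn1c*. *Commd1*, *Trappc9*, *Kcnq1ot1*, *Impact*, *Gnas* and *Mcts2* kept their direction throughout. Leaving out each mouse in turn gave log2 fold changes from -3.63 to 0.11 for *Zrsr1*, -0.15 to 1.29 for *Peg13*, -2.91 to 2.74 for *Cdkn1c*, -0.25 to 0.26 for *Slc22a18*, -0.90 to 0.32 for *Mest* and -0.45 to 0.13 for *H13*. *Slc22a18* was at -0.098 with library size only. *Igf2r* was at 1.04 on length-scaled counts and at 1.02 with DESeq2 on them. *Mest* was at -0.58 in both of these, at -0.21 with library size only and at -0.0011 with filterByExpr. Scaling by library size only moved the median of all tested genes from 0.0016 to -0.17.

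At an unadjusted p under 0.05, lower members numbered 2 with DESeq2 on the same counts (5.01% of all genes), 2 with filterByExpr (5.52%), 0 on length-scaled counts (4.91%), 3 with library size only (7.06%), and 0 to 1 as each mouse was left out (3.58% to 5.54%). Higher members numbered 0 with library size only (1.16%) and 0 to 2 as each mouse was left out (1.16% to 4.71%). Members without overlap numbered 2 to 4 lower and 1 to 2 higher as each mouse was left out, an alternative chosen after seeing the data, with 4 lower without mouse 7. The shares of all genes of that level were then 9.82% to 14.5% lower and 10.3% to 20% higher, and 13.1% lower without mouse 7. Of the further imprinted genes, 2 were lower past the adjusted threshold with DESeq2 on either kind of counts, beside 1.83% of genes on the same counts. At an unadjusted p under 0.05, 1 was lower with filterByExpr (5.52% of all genes). Higher ones numbered 2 with DESeq2 on the same counts (3.51%), with RLE factors (3.07%) and without a filter (2.54%). As each mouse was left out, 0 to 3 were higher (1.16% to 4.71%) and 2 to 4 lower (3.58% to 5.54%). Of the factors, 1 was lower on length-scaled counts (4.91%). As each mouse was left out, 1 to 3 factors were lower and 0 to 1 higher, beside the same shares of all genes. The cause of these changes was not tested. The ratio of 3 to the next mouse, with its alternatives also chosen after seeing the data, held for 4 members, for 3 with library size only (*Peg13* at 2.97), for 3 in TPM, for 3 with a median of at least 1 CPM and for 4 at a ratio of 2. In the order of levels 5 members moved with reads per kilobase. No paired analysis was possible because the genotypes share no mouse number. With 3 mice a group, only differences well above the spread between mice can be called.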

Other observations

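Further imprinted genes outside the member list are given by mouse here, picked after their values had been seen because they varied between mice of a genotype. In the list as a whole, 2 of the 21 genes whose mean reached 1 CPM, *Peg12* and *Slc22a3*, had a mouse at 3 times the next or more, beside 1.61% of all genes of that level, and so did 0 of the 20 imprint factors. Both reached that level only through the high mouse, with means of 0.162 CPM (*Peg12*) and 0.457 CPM (*Slc22a3*) over the other 5, so the count describes those values and nothing further. *Slc22a3*, an organic cation transporter gene of the *Igf2r* cluster, was at 6.22, 0.161 and 0.493 CPM in Tet2+/+ mice 19, 23 and 24 and at 0.411, 1.22 and 0 CPM in Tet2-/- mice 5, 7 and 8. *Ddc*, a neighbour of *Grb10* that encodes an amino acid decarboxylase, was at 2.03 CPM in mouse 19 and at most 0.482 CPM in the others. *Smoc1*, which encodes a matrix protein, was at 3.11 CPM in mouse 19 and at most 0.986 CPM in the others. *Sfmbt2*, a Polycomb group gene, was high in a mouse of each genotype, at 6.40, 0.642 and 2.18 CPM in Tet2+/+ blasts and at 3.01, 8.29 and 0.651 CPM in Tet2-/- blasts. *Nespas*, the antisense RNA of the *Gnas* cluster, had reads in mice 19 (10 reads, 0.598 CPM) and 8 (15 reads, 0.814 CPM) only, the mice in which *Grb10* was detected most. *Nespas* overlaps *Gnas* on the opposite strand, and 60.1% of the bases of Gnas-222 are shared with *Nespas*, so these few reads also rest on how reads were divided. Within *Gnas*, the transcript Gnas-208 had 835 estimated reads in mouse 23 and 662 in mouse 24, and 0 in the other 4 mice, but 86.6% of its bases are shared with *Gm20721*, so these values rest on how reads were divided.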
